A study of Mus musculus with 20 samples.

Results

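The 26 genes described here encode enzymes that build cholesterol and proteins that sense or move sterols or act on their uptake. Many, but not all, are genes that the transcription factor SREBP2 (encoded by Srebf2) is known to control or that control it. The 26 genes were taken by gene symbol from knowledge of the pathway, but with earlier results of these data known. Each symbol was found in 1 of the 48440 rows of the table. All 26 passed the filter on low counts in each comparison. RNA of gonadal fat and of liver was sequenced, from mice deficient in PKCε, the epsilon form of protein kinase C, whose gene is Prkce, with the genotype label AdEpsKO (called KO here), and from wild-type (WT) mice. Every mouse was of the C57BL/6 strain, was given a high fat diet for 1 week and was then fasted for 6 h, so that no group on another diet or in the fed state was compared. Each genotype gave 5 fat and 5 liver libraries, so there were 4 groups. No source used here spells the genotype label out, and neither the cells in which Prkce was deleted, nor age or sex, nor whether fat and liver libraries of the same number came from the same mouse is given there.

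Cholesterol is made from acetyl-CoA through mevalonate, isoprenoid diphosphates, squalene and lanosterol. When sterols in the endoplasmic reticulum run low, Scap carries SREBP2 to the Golgi, where it is cut and its released part switches on the genes of the pathway. When sterols are plentiful, Insig1 and Insig2 hold Scap and SREBP2 back. The liver makes cholesterol for lipoproteins and bile, whereas fat tissue stores cholesterol and takes much of it from the blood.

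Libraries held from 12880933 to 17276907 expected counts in fat and from 13836370 to 20784145 in liver. The targeted gene Prkce ran from 22.3 to 35.1 CPM (counts relative to the scaled size of a library) in KO fat and from 35.2 to 67.1 CPM in WT fat, and the ratio of KO to WT was estimated at 0.615 (0.45 to 0.841, a 95% interval as are all intervals given here). In liver it ran from 8.64 to 14.3 CPM in KO and from 10.6 to 20 CPM in WT, with an estimated ratio of 0.781 (0.595 to 1.02). Neither difference passed the edgeR test over all genes (adjusted p = 0.687 and 0.417). The adipocyte hormone gene Adipoq ran from 1530 to 4960 CPM in the fat libraries and from 0 to 4.43 CPM in the liver libraries, and Alb, the serum albumin gene of hepatocytes, from 80400 to 115000 CPM in liver. KO fat library 2 stood apart: its 8 urothelium markers summed to 2100 CPM, against 52.2 to 178 CPM in the other fat libraries, and its 8 markers of uterus and oviduct epithelium to 749 CPM, against 9.3 to 113 CPM. The uterus and oviduct markers also summed to 151 to 214 CPM in WT liver and 156 to 269 CPM in KO liver, so they do not mark those tissues alone. Alb stood at 438 CPM in KO fat library 3 and 462 CPM in WT fat library 4.

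The members share sequence features close to their start sites. RefSeq promoters (GRCm38.p6) were at hand for 22 of the 26 genes, and not for Fdps, Fdft1, Sqle and Stard4. The 250 bases before each start were searched on both strands, and a gene was counted if any of its starts had a match. For some members, such as Lbr and Tm7sf2, the window lay wholly after the earliest annotated start of the gene. For others it lay partly after that start. Only 36 bases of the Msmo1 window and 145 of the Idi1 window lay before it, and these held no match. The bases of Cyp51 and Dhcr7 before it held no CCAAT box. Matches after the earliest start are included in the counts that follow. The box CCAAT, to which NF-Y binds, was found in 20 of the 22, against 39.5% of protein-coding genes, and the box GGGCGG, to which Sp1 binds, in 20 of the 22, against 45.8%. The sterol element TCACNCCAC was found in 1 of the 22, Hmgcs1, against 1.2%, and the E-box variant TCACGTGA in 0, against 1.15%. Other spellings of the sterol element were not searched, and the 4 motifs did not overlap one another in the windows searched. Of these windows, 6 are shown, that of Insig1 without the bases after the earliest annotated start, with matches in capitals (ATTGG is CCAAT and CCGCCC is GGGCGG on the other strand): Hmgcs1, with the sterol element; Mvk, with the most CCAAT boxes of these; Ebp and Insig1, at the highest levels per length in liver; and Ggps1 and Mylip, the members higher in fat.
Hmgcs1, chr13:119690101-119690350, plus strand: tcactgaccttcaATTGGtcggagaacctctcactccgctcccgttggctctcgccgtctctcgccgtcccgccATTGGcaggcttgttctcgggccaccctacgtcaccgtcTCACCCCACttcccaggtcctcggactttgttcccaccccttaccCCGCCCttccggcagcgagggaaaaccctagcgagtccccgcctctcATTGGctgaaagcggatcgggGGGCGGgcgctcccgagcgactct
Mvk, chr5:114444019-114444268, plus strand: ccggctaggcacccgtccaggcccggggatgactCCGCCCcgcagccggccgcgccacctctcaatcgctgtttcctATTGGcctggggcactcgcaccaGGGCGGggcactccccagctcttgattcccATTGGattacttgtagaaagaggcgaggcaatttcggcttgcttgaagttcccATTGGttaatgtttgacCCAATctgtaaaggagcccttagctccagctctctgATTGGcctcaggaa
Ebp, chrX:8193513-8193762, minus strand: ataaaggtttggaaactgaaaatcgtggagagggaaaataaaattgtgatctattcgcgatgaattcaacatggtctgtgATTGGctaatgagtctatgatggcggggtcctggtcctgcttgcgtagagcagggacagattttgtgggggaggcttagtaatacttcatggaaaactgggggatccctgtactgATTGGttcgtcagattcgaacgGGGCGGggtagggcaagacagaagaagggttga
Insig1, chr5:28071162-28071362, plus strand: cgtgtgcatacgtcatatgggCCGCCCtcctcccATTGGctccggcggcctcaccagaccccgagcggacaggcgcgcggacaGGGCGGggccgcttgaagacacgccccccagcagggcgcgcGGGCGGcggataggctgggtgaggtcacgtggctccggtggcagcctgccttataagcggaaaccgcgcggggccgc
Ggps1, chr13:14063489-14063738, minus strand: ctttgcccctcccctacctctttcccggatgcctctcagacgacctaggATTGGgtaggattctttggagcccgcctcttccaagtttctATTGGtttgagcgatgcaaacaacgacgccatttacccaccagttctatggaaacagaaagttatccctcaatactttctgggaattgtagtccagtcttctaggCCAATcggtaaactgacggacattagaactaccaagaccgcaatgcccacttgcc
Mylip, chr13:45389492-45389741, plus strand: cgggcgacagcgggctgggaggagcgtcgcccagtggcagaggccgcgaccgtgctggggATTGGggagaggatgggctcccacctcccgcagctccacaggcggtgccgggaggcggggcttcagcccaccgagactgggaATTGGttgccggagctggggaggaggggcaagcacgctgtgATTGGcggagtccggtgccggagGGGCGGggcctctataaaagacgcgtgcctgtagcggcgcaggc

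In WT mice, most steps of cholesterol synthesis were at lower transcript levels in gonadal fat than in liver. Of the 26 members, 20 were lower in fat and 2 were higher by edgeR's quasi-likelihood test (adjusted p under 0.05), whereas of all 14739 genes tested 35.9% were lower and 38.4% were higher. The median log2 difference (fat minus liver) was -1.71 over the members and 0.04 over all genes. In bulk tissue, fewer cells of a type and less RNA per cell cannot be told apart. Levels in this comparison are CPM scaled by TMM over the 10 WT libraries, and they differ from the levels scaled within a tissue that are given for the genotypes.

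**Figure D1:**
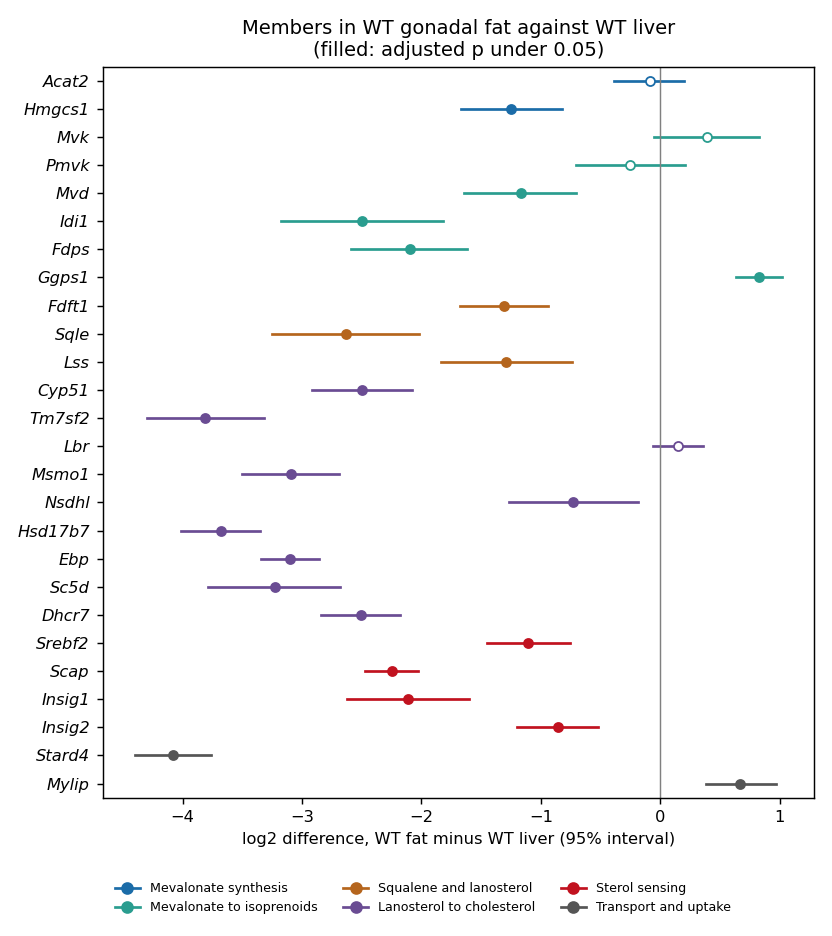
Log2 difference between WT fat and WT liver (horizontal axis) for each of the 26 members, ordered and coloured by role. Points are edgeR estimates from 5 libraries against 5 and lines their 95% intervals; filled points passed the test, and they reach from -4.08 for Stard4 to 0.83 for Ggps1.

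Of the 2 genes at the start of the pathway, 1 was called lower in fat and 1 was not called. Acat2, the cytosolic thiolase that joins acetyl-CoA units, held 61.6, 63.5, 52.4, 66.7 and 39.1 CPM in the WT fat libraries and 60, 61.2, 67.3, 53.1 and 60.9 CPM in WT liver. The groups overlapped, the ratio of fat to liver was 0.937 (0.764 to 1.15), and Acat2 was not called. Hmgcs1, which makes HMG-CoA, held 111, 97.2, 97.5, 82.8 and 91.5 CPM in WT fat and 179, 224, 364, 180 and 192 CPM in WT liver. All fat libraries lay below all liver libraries, with a ratio of 0.421 (0.314 to 0.566; adjusted p = 0.000103 by edgeR).

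The 6 enzymes that take mevalonate to isoprenoids were not alike, with 3 lower in fat, 1 higher and 2 not called. The kinases Mvk and Pmvk, which phosphorylate mevalonate in turn, had ratios of 1.31 (0.969 to 1.77) and 0.842 (0.612 to 1.16) and were not called. The decarboxylase Mvd, at 6.35 ± 1.13 CPM in WT fat and 14.3 ± 4.62 CPM in WT liver (SD, n = 5 each), had a ratio of 0.443 (0.321 to 0.612). Idi1, the isopentenyl diphosphate isomerase, held 8, 10.2, 5.58, 7.07 and 4.45 CPM in WT fat. In WT liver it held 24.9, 32.7, 73.8, 37.5 and 32 CPM, with a ratio of 0.176 (0.11 to 0.283) and no overlap. For Fdps, which makes farnesyl diphosphate, the ratio was 0.233 (0.166 to 0.326).

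Ggps1, which makes geranylgeranyl diphosphate for protein prenylation and not for sterols, went the other way. Its WT fat libraries held 18.7, 18.8, 16.9, 19 and 17.5 CPM and its WT liver libraries 11, 9.56, 9.5, 10.9 and 10.3 CPM. The groups did not overlap, and the ratio was 1.77 (1.55 to 2.02; adjusted p = 3.77e-06 by edgeR). Beside it, the farnesyl branch that leads to squalene was lower in fat at each of its 3 steps to lanosterol. Fdft1 (squalene synthase), Sqle (squalene epoxidase) and Lss (lanosterol synthase) had ratios of 0.403 (0.311 to 0.522), 0.161 (0.105 to 0.247) and 0.409 (0.279 to 0.6).

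The widest gap lay between lanosterol and cholesterol, where 8 of 9 members were called lower in fat and the median log2 difference was -3.09. Tm7sf2, a sterol C14 reductase, held 8.76, 9.71, 5.64, 12.4 and 7.66 CPM in WT fat and 115, 96.8, 103, 143 and 163 CPM in WT liver, a ratio of 0.0713 (0.0509 to 0.0999). Hsd17b7, a 3-keto-sterol reductase, had a ratio of 0.0782 (0.0622 to 0.0983) and stayed at or below 6.93 CPM in each WT fat library. Ebp, the sterol isomerase, held 31.2, 23.2, 29, 27.4 and 28.6 CPM in WT fat against 275, 236, 227, 242 and 215 CPM in WT liver. Its libraries were tightly grouped in both tissues, and its ratio of 0.117 (0.0986 to 0.138) had the smallest adjusted p of the 26 (5.06e-10 by edgeR).

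Other enzymes of this stretch had like ratios. Msmo1, a methyl sterol oxidase, was at 0.117 (0.0885 to 0.155) and the desaturase Sc5d at 0.106 (0.0723 to 0.156). Cyp51, the lanosterol demethylase, was at 0.177 (0.132 to 0.237) and Dhcr7, which makes the last double bond reduction of one branch, at 0.176 (0.14 to 0.221). Nsdhl, a sterol dehydrogenase, was closer to liver, with 38.2 ± 13.9 CPM in WT fat and 63.5 ± 16 CPM in WT liver and a ratio of 0.602 (0.414 to 0.876). Lbr, which has the same reductase activity as Tm7sf2 and also anchors chromatin at the nuclear envelope, was the 1 member of the stretch not called. It stood at 23.4 ± 2.22 CPM in WT fat and 21.1 ± 2.02 CPM in WT liver (SD, n = 5 each).

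All 4 genes of sterol sensing were lower in WT fat. Srebf2 held 30.5, 29.2, 51.8, 29.2 and 34.4 CPM in WT fat and 69.5, 82.4, 69.6, 84.2 and 72.1 CPM in WT liver, a ratio of 0.464 (0.365 to 0.589). Scap had a ratio of 0.21 (0.181 to 0.245), from 36 ± 2.01 against 171 ± 20.9 CPM. Insig1, itself a target of SREBP2, held 101, 114, 52.7, 100 and 56.9 CPM in WT fat and 374, 331, 473, 316 and 339 CPM in WT liver. Its ratio was 0.232 (0.163 to 0.33), while that of its homolog Insig2 was 0.552 (0.436 to 0.699).

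Of the 2 members that act on transport and uptake, 1 was lower and 1 higher in WT fat. Stard4, a carrier of cholesterol between membranes, held 14.6, 14.6, 17.7, 10.9 and 12.6 CPM in WT fat and 219, 236, 280, 220 and 233 CPM in WT liver. This ratio, 0.0592 (0.0475 to 0.0738; adjusted p = 5.17e-10 by edgeR), was the lowest of the 26. Mylip, a ubiquitin ligase that marks lipoprotein receptors for destruction and is induced by the sterol receptor LXR, held 34.2, 29.5, 29.5, 38.9 and 44.9 CPM in WT fat and 23, 23, 17.7, 22.2 and 25 CPM in WT liver. Its groups did not overlap, and its ratio was 1.6 (1.3 to 1.96).

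The tissues differ in how RNA is shared between genes: the TMM factors were 1.31 to 1.46 in WT fat and 0.713 to 0.738 in WT liver. With plain library sizes, chosen after seeing the data, the median over all genes was 0.97 and that of the members -0.79. Under that scaling 14 members were called lower and 6 higher, while 12839 of all 14739 genes were called in either direction. Acat2, Pmvk, Nsdhl and Insig2 changed sign, and Hmgcs1, Mvd, Lss and Srebf2 were no longer called. The 14 were Idi1, Fdps, Fdft1, Sqle, Cyp51, Tm7sf2, Msmo1, Hsd17b7, Ebp, Sc5d, Dhcr7, Scap, Insig1 and Stard4. With upper-quartile scaling (median of all genes 0.34), 19 were lower and 4 higher, and Acat2 and Pmvk changed sign. Of all 14739 genes, 11013 were called in either direction there.

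Levels can be set side by side between genes only per length, as CPM per kb of the longest annotated transcript, here with 1 scaling over all 20 libraries. In WT liver the order was led by Ebp (138 ± 13.2 CPM per kb), Insig1 (137 ± 23.6) and Sc5d (110 ± 18.6), with Hmgcs1 next at 66.3 ± 22.7 (SD, n = 5 each). Ebp and Insig1 differed by less than their spread. In WT fat the order was led by Insig1 (31.6 ± 10.4), Pmvk (30.1 ± 10.2), Hmgcs1 (27.8 ± 3.02) and Acat2 (25.2 ± 4.96), which do not differ beyond their spread. The lowest levels were those of Hsd17b7 (1.28 ± 0.187), Idi1 (2.34 ± 0.734) and Sqle (2.62 ± 0.895) in WT fat and those of Ggps1 (2.43 ± 0.171) and Lbr (6.05 ± 0.573) in WT liver.

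Fat of PKCε-deficient mice was set against WT fat to ask whether transcripts of the pathway differ. Most members were higher in KO fat in direction, but none passed the test. Of all 14707 genes, 0% were called (smallest adjusted p 0.687 by edgeR), and 0 of the 26 members were. In direction, 23 members lay higher in KO fat, or 88.5%, against 50.1% of all genes, and their median log2 difference (KO minus WT) was 0.28 against 0. With limma-voom and quality weights, 18 members lay higher and the median was 0.17. An unadjusted p under 0.05 was reached by 4 members higher in KO, against 3.49% of all genes, and by 1 lower, against 3.64%. For 0 members did the KO and WT libraries separate, a pattern that 0.592% of all genes showed with KO above and 0.68% with KO below.

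**Figure D2:**
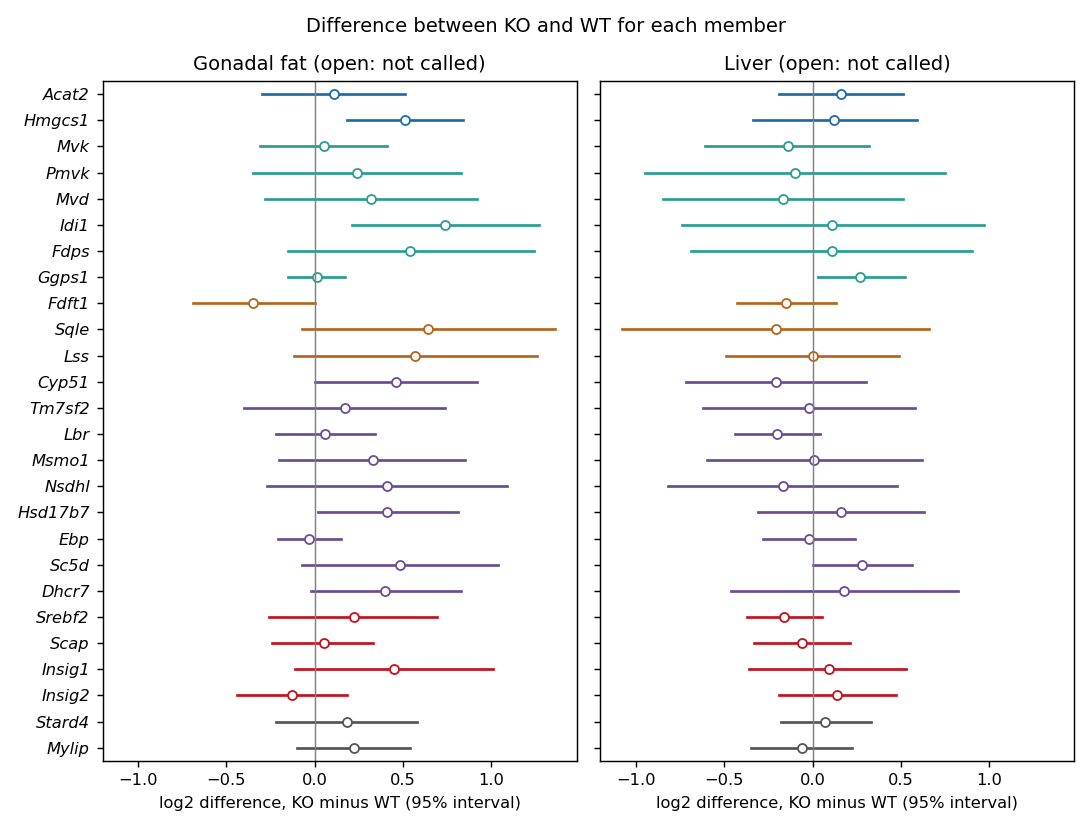
Log2 difference between KO and WT (horizontal axis) for each member in gonadal fat (left) and liver (right), ordered and coloured by role as in the plot of the tissues. Points are edgeR estimates from 5 libraries against 5 and lines are 95% intervals; all points are open because none passed the test, with medians of 0.28 in fat and -0.01 in liver.

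Idi1 had the largest difference of the members in fat. On the scale of the fat libraries alone, KO held 18.5, 22.6, 14.1, 12.3 and 14.2 CPM and WT 11.1, 14.2, 7.64, 9.83 and 6.17 CPM. All but 1 of the WT libraries lay below the lowest KO library, and the ratio of KO to WT came to 1.67 (1.15 to 2.41; adjusted p = 0.687 by edgeR). Hmgcs1 held 153, 159, 162, 230 and 241 CPM in KO and 154, 136, 133, 115 and 127 CPM in WT, so that the groups touched only at KO library 1 and WT library 1. The ratio was 1.42 (1.13 to 1.79) and the adjusted p again 0.687. Its high libraries were KO 4 and KO 5, whereas KO 2 held the highest fat value of 17 members.

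The 2 further members with an unadjusted p under 0.05 and a higher level in KO fat act between lanosterol and cholesterol. Cyp51 held 39.4, 71.3, 43.5, 29.3 and 42.9 CPM in KO and 32, 32.8, 40, 32.8 and 26.6 CPM in WT, with a ratio of 1.38 (1 to 1.9). Hsd17b7 held 9.71, 15.7, 9.79, 10 and 8.96 CPM in KO and 7.9, 9.7, 9.03, 7.07 and 7.02 CPM in WT, with a ratio of 1.33 (1.01 to 1.75). In both, KO library 2 was far above the others. The same was so for Sqle, whose KO libraries held 20.3, 48.5, 22.6, 16.9 and 17.8 CPM and whose WT libraries held 16.2, 15.7, 25, 11.1 and 12.7 CPM. Its ratio was 1.56 (0.951 to 2.56).

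Fdft1 was the 1 member with an unadjusted p under 0.05 and a lower level in KO fat, and it was not called. It held 71.2, 63.8, 64.5, 55.5 and 57.4 CPM in KO fat and 101, 79.6, 55, 93.8 and 67.5 CPM in WT fat, with a ratio of 0.787 (0.621 to 0.998; adjusted p = 0.687 by edgeR). The KO values lay inside the WT range. Of the exon bases of Fdft1, 18.3% overlap Ctsb on the opposite strand, and its deposited values were not whole in 20 of 20 libraries, so reads may have been divided with another gene. The remaining members lower in KO fat were Ebp at 0.981 (0.868 to 1.11) and Insig2 at 0.915 (0.739 to 1.13).

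**Figure D3:**
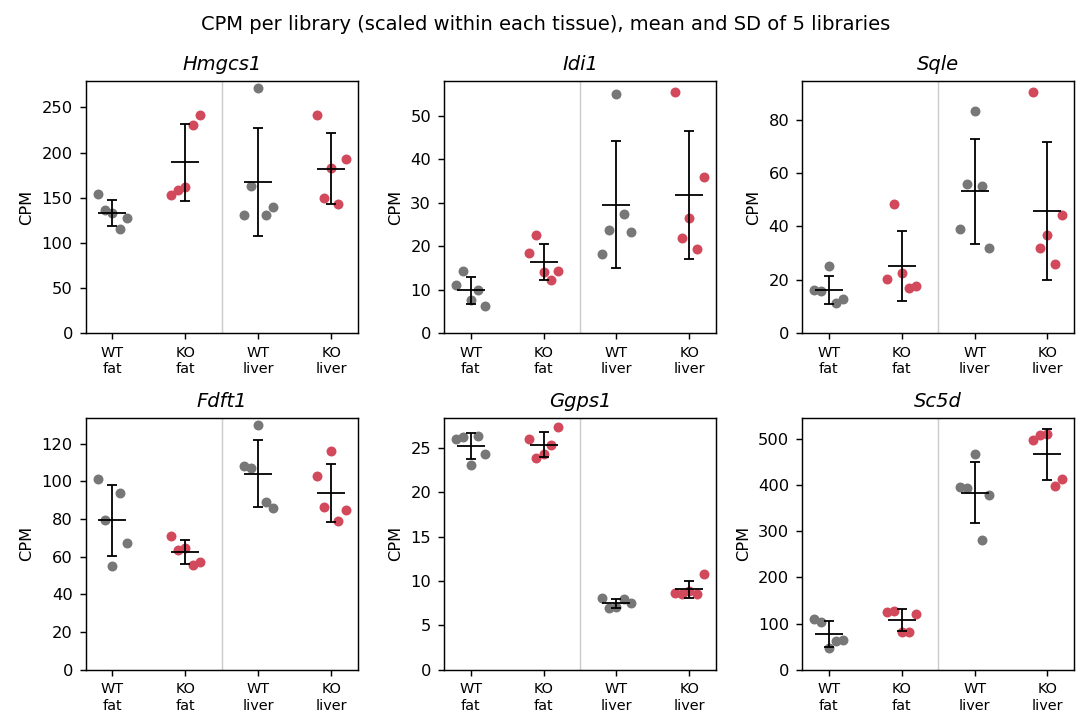
CPM on the vertical axis for 6 members in each library of WT fat, KO fat, WT liver and KO liver, scaled within each tissue. Points are libraries, and the bars give the mean and SD of 5; the mean of Hmgcs1 is 189 CPM in KO fat against 133 CPM in WT fat, and that of Ggps1 is 9.07 CPM in KO liver against 7.5 CPM in WT liver.

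By role, the fat medians of the log2 difference were 0.31 for mevalonate synthesis, 0.28 for mevalonate to isoprenoids, 0.57 for squalene and lanosterol, 0.4 for lanosterol to cholesterol, 0.13 for sterol sensing and 0.2 for transport and uptake. Insig1, whose transcript follows SREBP2 activity, averaged 161 ± 40.1 CPM over the KO and 118 ± 39.6 CPM over the WT fat libraries (SD, n = 5 each), a ratio of 1.36 (0.924 to 2.02). Srebf2 itself stood at 56.4 ± 16.4 and 48.5 ± 12.8 CPM, with a ratio of 1.16 (0.837 to 1.62). The difference of Srebf2 changed sign, to -0.13, and that of Msmo1 to -0.04, when the 3 fat libraries with over 100 CPM of Upk3a or Alb were left out. With those 3 libraries out, a setting chosen after seeing the data, 21 of the 26 members lay higher and their median was 0.12.

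KO fat library 2 weighed most on the members. Without it 21 members lay higher and the median was 0.13; over all ways of leaving out 1 fat library, the median ran from 0.13 to 0.39. This library also had the highest sums of urothelium markers, given above, and the lowest of the 8 adipocyte markers (20100 CPM, against 22000 to 29000 CPM in the other KO and 24900 to 35100 CPM in the WT fat libraries). Between the groups, 7 of the 8 adipocyte markers, 8 of 8 fibroblast and progenitor markers and 8 of 8 skeletal muscle markers lay lower in KO fat, with medians of -0.29, -0.27 and -1.06 on the log2 scale and 0 called. The summed muscle markers overlapped widely, at 18 to 563 CPM in KO and 15.9 to 747 CPM in WT fat. Of the macrophage markers 5 of 7 tested lay lower (median -0.19), and of the hepatocyte markers 5 of 8 (median -0.11). The summed hepatocyte markers did not overlap between the groups, at 1470 to 2200 CPM in KO and 2400 to 5020 CPM in WT fat. The sum did not follow all 8 genes alike, and 1 of the 8 was lower in KO fat at an unadjusted p under 0.05 by edgeR. From WT fat to WT liver, their log2 differences (fat minus liver) ran from -10.9 to -2.58, with a median of -10.4. The genes thus weigh unequally in a fat sum, and the split of the sum is not read as hepatocyte content. When each gene's log2 CPM was taken minus its mean over the fat libraries and averaged, the groups overlapped. This average ran from -1.09 to 2.49 in KO and from -2.43 to 2.79 in WT fat. The part of tissue makeup in the members' differences was not tested beyond leaving libraries out.

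In liver the members were split evenly between the genotypes. Of all 13298 genes, 0.00752% were called (1 gene, no member), and 0 of the 26 members were. Between KO and WT liver, 13 members lay higher and 13 lower, with a median log2 difference of -0.01 against 0 over all genes. With limma-voom and quality weights, 8 lay higher and the median was -0.05. An unadjusted p under 0.05 was reached by 2 members higher in KO and 0 lower, against 6.56% of all genes in each direction. The libraries of 1 member separated with KO above WT and of 0 with KO below, against 1.51% and 1.28% of all genes.

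That member was Ggps1. It held 8.67, 8.55, 8.83, 8.51 and 10.8 CPM in KO liver and 8.05, 6.96, 7.08, 7.96 and 7.47 CPM in WT liver. Its estimated ratio was 1.21 (1.02 to 1.43; adjusted p = 0.342 by edgeR). Sc5d, the other member with an unadjusted p under 0.05, held 499, 509, 512, 398 and 414 CPM in KO and 396, 395, 467, 281 and 379 CPM in WT, with overlap and a ratio of 1.22 (1 to 1.48; adjusted p = 0.38 by edgeR). The log2 differences of the 26 members in liver ran from -0.21 to 0.28.

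Single liver libraries stood out in several members. Sqle held 90.6, 31.8, 36.8, 25.8 and 44.2 CPM in KO liver and 39.2, 55.8, 83.5, 55.2 and 32.1 CPM in WT liver, a ratio of 0.864 (0.474 to 1.58). Fdps held 221, 100, 100, 73.9 and 54.8 CPM in KO and 90.7, 121, 134, 80.3 and 85.4 CPM in WT. In each case KO library 1 was far above the rest of its group, and WT library 3 was the highest of its own. Without KO liver library 1, 4 of the 26 members lay higher and the median was -0.18; over all libraries left out in turn it ran from -0.18 to 0.08. The 8 macrophage markers all lay lower in KO liver, 6 of them at an unadjusted p under 0.05 and 0 called. They summed to 401 to 432 CPM in KO and 366 to 673 CPM in WT liver. Lower in KO liver were also 7 of 8 hepatocyte markers (median -0.2, 2 at an unadjusted p under 0.05), 3 of 3 tested adipocyte markers (median -0.83) and 5 of 5 tested skeletal muscle markers (median -2.87), with 0 called. The summed muscle markers were high in WT liver libraries 2 and 4 only, at 117 and 181 CPM. In the other WT livers they ran from 0.861 to 16.9 CPM and in KO liver from 0.599 to 19.6 CPM. The part of these cell types in the members' values was not tested.

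The difference of the KO effect between fat and liver was tested as an interaction over all 20 libraries. Of 15652 genes 0% were called, and 0 of the 26 members were (smallest adjusted p 0.475 over all genes by edgeR). In 21 of the members the KO effect was higher in fat than in liver, with a median difference of 0.26 on the log2 scale, against 50.9% of all genes and a median of 0.01. The members' median was 0.16 without KO fat library 2 and 0.44 without KO liver library 1, the lowest and highest with 1 library left out. The largest were Sqle at 0.84 (-0.23 to 1.92) and Cyp51 at 0.66 (-0.03 to 1.35). Ggps1 was at -0.27 (-0.51 to -0.03), with an adjusted p of 0.903 by edgeR. So the members' lean toward KO in fat was not shown to differ from that in liver.

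**Figure D4:**
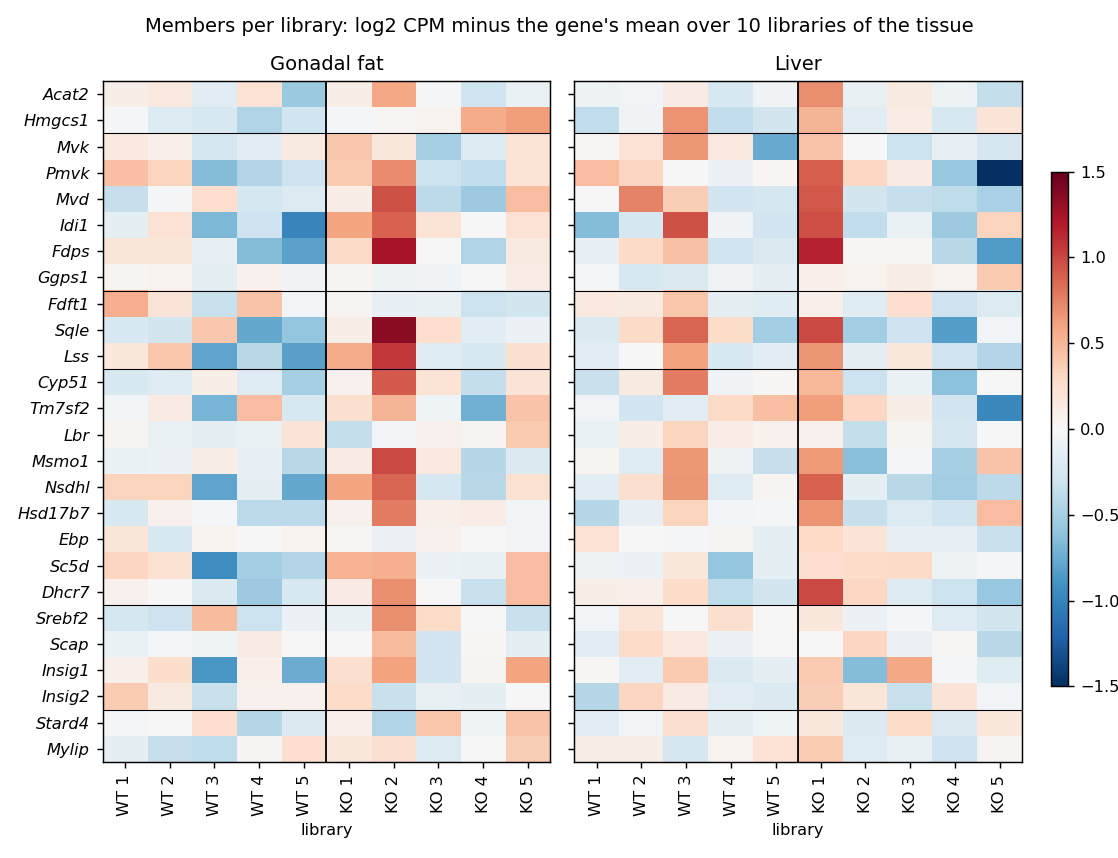
Each member (rows, ordered by role) in each fat library (left) and liver library (right), as log2 CPM minus the mean of the 10 libraries of that tissue; red is above and blue below the mean, and colours are capped at 1.5. KO fat library 2 and KO liver library 1 are the reddest columns, where 17 and 14 of the 26 members had the highest value of the tissue.

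Many members, but not all, tended to be high or low together in single libraries. Within groups, 16 of the 26 in fat and 20 in liver correlated above 0.5 with the mean of the others. Without KO fat library 2 it was 13 in fat, while the liver count was not repeated without KO liver library 1. No such count was made over all genes, so whether the members differ from other genes in this was not tested. The correlation was negative for Hmgcs1 (-0.22), Lbr (-0.214), Ebp (-0.354) and Stard4 (-0.358) in fat and for Ggps1 (-0.412) in liver. A list score was taken for each library: each gene's log2 CPM was centred on its mean in that tissue, and the 26 centred values were averaged. The score was 0.503 in KO fat library 2, where 17 of the 26 members had their highest fat value. In the other KO fat libraries it ran from -0.168 to 0.177, and in the WT fat libraries from -0.305 to 0.0438. In liver the score was 0.529 in KO library 1, where 25 members were above their own mean and 14 at their highest, and 0.327 in WT library 3. The other KO liver libraries ran from -0.279 to -0.0205. The median SD of log2 CPM within groups was 0.344 over the members and 0.254 over all genes in fat, and 0.386 and 0.225 in liver.

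**Figure D5:**
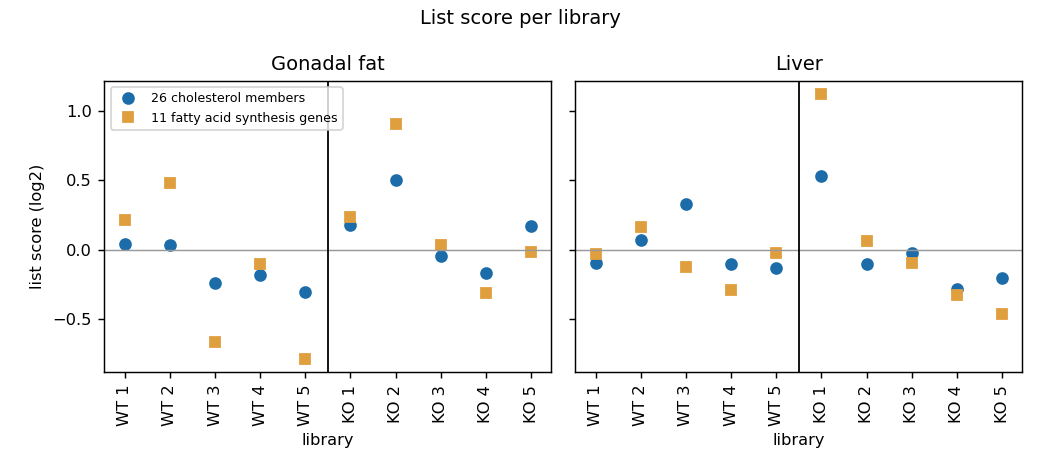
List score (vertical axis, log2) of the 26 cholesterol members and of 11 fatty acid synthesis genes, targets of the related factor SREBP1, in each fat library (left) and liver library (right). KO fat library 2 (0.503 and 0.904) and KO liver library 1 (0.529 and 1.12) are the highest of their tissue for both lists.

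Genes of fatty acid synthesis that SREBP1 controls were high in the same libraries. Their score was 0.904 in KO fat library 2 and 1.12 in KO liver library 1, where 10 of the 11 had their highest liver value. WT liver library 3, high for the cholesterol members, had a score of -0.123 for them. Between genotypes 0 of the 11 were called in either tissue. In fat 8 lay higher in KO, and the median log2 difference of the 11 was 0.3. Srebf1, which encodes SREBP1, leaned the other way with overlap, at 331 ± 24.1 CPM in KO fat and 394 ± 88.4 CPM in WT fat (SD, n = 5 each). Among the 8 was the desaturase Scd2, whose KO libraries held 830, 1150, 434, 400 and 859 CPM and whose WT libraries held 540, 574, 272, 212 and 315 CPM (ratio 1.92, 1.1 to 3.36; adjusted p = 0.687 by edgeR). In liver 9 of the 11 lay higher, against 50% of all genes, with a median of 0.21. KO liver library 1 stood far above the rest here: the scores of the other KO liver libraries ran from -0.46 to 0.0621 and those of WT liver from -0.291 to 0.162.

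Between the tissues of WT mice, 5 of the 11 fatty acid synthesis genes were called higher in fat and 3 lower, against 38.4% and 35.9% of all genes. A difference between the 2 lists was not tested. Fasn, the fatty acid synthase, had a ratio of fat to liver of 6.71 (3.29 to 13.7) and Scd2 one of 21.2 (13.3 to 34), while Fads2, a desaturase of polyunsaturated fatty acids, was at 0.0147 (0.011 to 0.0196).

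Other genes around the pathway were compared in the same fits. Of 11 genes of sterol feedback and SREBP processing, 0 were called between genotypes in either tissue. Erlin2, an endoplasmic reticulum protein that takes part in sterol-driven protein degradation, held 43, 47, 41, 47.1 and 40.8 CPM in KO liver and 38, 32.3, 33.1, 34.4 and 37.4 CPM in WT liver. Its groups did not overlap, with a ratio of 1.25 (1.1 to 1.42) and an adjusted p of 0.217 by edgeR. In fat the ratio of Erlin2 was 1.14 (1.02 to 1.27; adjusted p = 0.687 by edgeR). In WT mice 7 of the 11 were lower in fat than in liver and 0 higher, against 35.9% and 38.4% of all genes. Among the 7 was Srebf1 at 0.602 (0.449 to 0.808).

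Of 13 genes of sterol uptake and transport inside cells, 0 were called between genotypes. Gramd1c, of a family of sterol carriers at membrane contacts, had a ratio of 1.4 (1.15 to 1.71; adjusted p = 0.228 by edgeR) in liver, with 45, 58, 48.9, 48.5 and 75.5 CPM in KO and 43, 35, 34.4, 43 and 41.1 CPM in WT. In WT mice 10 of the 13 were lower in fat and 3 higher, where 35.9% and 38.4% of all genes were. The 3 were the lysosomal cholesterol carrier Npc2 at 3.91 (3.22 to 4.74), Gramd1b at 4.79 (3.77 to 6.09) and Gramd1a at 2.93 (2.48 to 3.47), so that members of the Gramd1 family lay on both sides, with Gramd1c at 0.0333 (0.0256 to 0.0433).

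Of 14 genes of LXR, efflux, esterification and oxysterols, 11 were tested in fat and 13 in liver, with 0 called between genotypes. Nr1h2, which encodes LXR beta, had a ratio of 0.846 (0.754 to 0.95; adjusted p = 0.687 by edgeR) in fat. In WT mice 9 of 13 were lower in fat and 1 higher (35.9% and 38.4% of all genes). The hepatobiliary exporter gene Abcg5 was among the 9, at 0.00177 (0.00116 to 0.00268), and the exporter gene Abcg1 was the 1 higher, at 2.67 (1.94 to 3.68). Of the 13 tested genes of acetyl-CoA supply and branches of the mevalonate pathway, 0 were called between genotypes. Por, the reductase that feeds electrons to Cyp51 and Sqle, held 461, 335, 322, 394 and 302 CPM in KO fat and 587, 540, 393, 535 and 476 CPM in WT fat (ratio 0.717, 0.57 to 0.901; adjusted p = 0.687 by edgeR). Its ranges overlapped, and its lean was opposite to that of Cyp51 and Sqle. Pggt1b, of the same list, held 15, 15.5, 15.7, 16.8 and 15.9 CPM in KO fat. In WT fat it held 13.9, 14.4, 10.1, 12.3 and 8.8 CPM. The groups did not overlap, a pattern that 0.592% of all genes showed with KO above. In WT mice 6 of these 13 were lower in fat and 4 higher, against the same 35.9% and 38.4% of all genes.

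Some counts may hold reads of other genes. Deposited values that were not whole, a sign that reads were divided between genes, occurred in all 20 libraries for Fdft1 and Scap, in 18 for Lbr, in 16 for Tm7sf2 and in 3 to 7 for Ggps1, Lss, Fdps and Cyp51. The other 18 members had whole values throughout. Of the exon bases of Fdps 26.7% overlap Gm43738, and of those of Tm7sf2 12.1% overlap Vps51, each on the same strand, and 5.44% of those of Ggps1 overlap Arid4b on the opposite strand.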

How the data were processed

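Per the labels' protocols, a Qiagen RNeasy kit was used for RNA and a TruSeq Stranded mRNA kit for the libraries. STAR 2.4.0d, RSEM 1.2.12, Trim Galore 0.2.8, DESeq2 and build GRCm38 are listed in the submitters' processing notes. For their settings, strand included, and for the annotation nothing is stated in the sources read. The authors deposited expected counts, 1 value per gene and library, without normalization. Depth is given with the results. It limits low genes most.

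Expected counts were rounded and filtered by filterByExpr of edgeR (a count of at least 10, a total of at least 15). Libraries were scaled by TMM and tested in R 4.3.3 by the quasi-likelihood test of edgeR 4.0.16 (robust fit; limma 3.58.1 for the voom alternative), with Benjamini-Hochberg adjustment over all genes tested and calls at an adjusted p under 0.05. KO and WT were compared within each tissue, WT fat with WT liver over 10 libraries, and the KO effects of the tissues as an interaction over 20. List scores used log2 CPM with a prior count of 2. Marker levels used plain library sizes. The chi-square per degree of freedom between libraries of a group was 15.9 or more, so none was a duplicate. Libraries of a group are taken to be from separate mice, as the design text gives 5 mice per group. Fat and liver libraries were fitted as independent, although some may share a mouse.

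The members, the 5 other pathway lists and the marker lists were chosen with earlier results of these data known. The genes named are the members, Prkce, up to 4 genes of each other list with the smallest p in a comparison, any called, and markers. Some genes of the pathway are not reported here. Alternatives were RLE and upper-quartile scaling, other filters on low counts, DESeq2 1.42.0, limma-voom with quality weights, a replicate block, 1 fit of all 20 libraries, KO libraries for the tissue comparison, and each library left out in turn. Plain library sizes and the leaving out of 3 fat libraries were chosen after seeing the data. Promoter sequences are from RefSeq (GRCm38.p6); gene models are from GENCODE on GRCm38. The steps were tested on simulated counts. Of the smallest changes put in, of 1.5-fold, 17.9% were recovered between KO and WT fat, 38.8% between KO and WT liver and 7.46% for the interaction. Of 2-fold changes these shares were 56.7%, 82.1% and 35.8%, and of 4-fold changes 83.3%, 97% and 69.7%. Small differences between genotypes, and some of 2-fold or more, could therefore go uncalled.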

Additional observations from a re-analysis of the deposited data

Results flagged for a closer look

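In 12 of 108 groups of 5 libraries, the gap between the highest library and the next, divided by the range of the group, was above the 95% critical value of Dixon's test. Chance flags about 1 group in 20 if values are normally distributed, which CPM without a log need not be. The lowest library was tested in the same way, and all 12 flags were at the high end. Members of one library are not independent.

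In liver, 4 of these were KO library 1: Mvd at 17.7 CPM against 6.66 to 7.68 in the other KO libraries (gap share 0.908), Nsdhl at 76.9 against 29 to 37.7 CPM (0.818), Fdps at 221 against 54.8 to 100 CPM (0.728) and Sqle at 90.6 against 25.8 to 44.2 CPM (0.716). WT liver library 3 gave another 4: Lss at 80.4 against 45 to 52.7 CPM (0.782), Hmgcs1 at 271 against 131 to 163 CPM (0.771), Idi1 at 55 against 18.1 to 27.4 CPM (0.748) and Stard4 at 209 against 159 to 172 CPM (0.74). Ggps1 was at 10.8 CPM in KO liver library 5 against 8.51 to 8.83 CPM (0.86).

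In fat, KO library 2 was the high library for Hsd17b7, at 15.7 against 8.96 to 10 CPM (0.846), and for Sqle, at 48.5 against 16.9 to 22.6 CPM (0.82). Srebf2 was at 70.9 CPM in WT fat library 3 against 40.7 to 47.8 CPM (0.765). That library also had the highest sums of the 8 macrophage markers (2960 CPM) and of the 8 fibroblast and progenitor markers (5330 CPM) among the fat libraries. Their part in the level of Srebf2 was not tested.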

How the results depend on the processing

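Counts of genes called in the genotype comparisons depended on the tool. In fat, DESeq2 called 16 genes where edgeR called 0. In liver, edgeR called 1 gene, DESeq2 138, limma-voom 3, edgeR with no filter on low counts 15, with all 20 libraries in 1 fit 2, and with 1 library left out in turn 0 to 3. For the interaction DESeq2 called 2 genes. By each of these settings, 0 of the 26 members were called. The cause of these differences was not tested.

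The libraries were not treated as paired, since the labels give the numbers no meaning and not every same-numbered pair correlated above 0.1. Between KO and WT fat the correlations were 0.341, 0.149, 0.505, -0.167 and -0.00246 for numbers 1 to 5, and numbers 1 to 3 matched their own number best. They ran from -0.227 to 0.251 in liver, where number 2 did so. Between WT fat and WT liver they ran from -2.32e-05 to 0.159, where numbers 1 and 4 did so, and between KO fat and KO liver from -0.0186 to 0.046, where number 3 did so. With the replicate number as a block, fat and the interaction had 0 genes called and liver had 3. The members' medians with the block were 0.24 (fat), -0.04 (liver) and 0.28 (interaction), and that of the tissue comparison was -1.73.

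Between WT fat and WT liver, the members' median was -0.79 with plain library sizes and from -1.86 to -1.62 with 1 library left out. Acat2 turned to 0.2 with upper-quartile scaling and 0.83 with plain library sizes, and ran from -0.16 to 0.01 with 1 library left out. Pmvk turned to 0.04 and 0.67 under these scalings and to 0.11 in KO libraries. With plain library sizes Nsdhl was at 0.18 and Insig2 at 0.06. Leaving out 3 fat libraries turned Msmo1 to -0.04 and Srebf2 to -0.13 between KO and WT fat. Sqle between KO and WT liver ran from -0.61 to 0.01 with 1 library left out. Differences between genotypes under 0.2 on the log2 scale were not followed singly: they held for 9 members in fat, of which 7 changed sign in some alternative, and for 21 in liver, of which 16 did.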
